A study of Mus musculus with 2 samples.

Results

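Broad open regions are stretches of hippocampal chromatin of 1500 bp or more that DNase I cut above background without a break, and that were this long in both libraries of the series. Runs of bases with a false discovery rate (FDR) under 0.05 were joined where they touched, in each library by itself, and a replicate 1 region of at least 1500 bp was kept where it overlapped a replicate 2 region of at least 1500 bp. This rule chose 1539 of 213366 replicate 1 regions, 0.721% of them by number and 9.24% of their bases (3.21 of 34.8 Mb). DNase-seq was made from 2 libraries, labelled as biological replicates 1 and 2 of 1 group. Their tissue is given as layer of hippocampus, taken from male B6CASTF1/J animals at an age of 25 days. Mice of that strain are hybrids with 1 genome copy from a laboratory strain and 1 from wild-derived CAST, while sequence and coordinates come from the laboratory strain's reference. The labels put both tissue samples under 1 donor entry, which goes against the peaks at sex-linked genes given further down, so how many animals the libraries stand for is not known. With 1 group and 2 libraries no test between conditions exists, and every value below is a description. Values over a set of regions are given as the mean of the libraries ± SD (n = 2 libraries), each library measured on its own intervals.

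DNase I cuts where nucleosomes and other proteins leave DNA exposed, so active promoters and enhancers appear as open regions, mostly much shorter than those described here. Promoters that overlap CpG islands, stretches of GC-rich DNA in which CpG dinucleotides are kept, are open in most tissues. Genes of development and genes that neurons switch on with activity often have long CpG islands that reach into the gene. A footprint is a short run of bases inside an open region that is cut less than its flanks, as happens where a protein covers the DNA.

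The sequence of the members is shown for promoters whose footprints were found in both libraries. In each line lower case is sequence outside such footprints and capitals are bases that lay in a footprint of both libraries, on mm10 (GRCm38). The 3 upstream windows below end at the RefSeq start site of Pcdh10, Irs2 and Jun, whose regions were among the longest at adhesion, insulin signalling and immediate early genes, and run 5′ to 3′ in the direction of the gene. Sncb gives an example inside a gene and away from its start, and the window near Ezh2 lies in the member with the highest mean peak value of all, both on the + strand.
Pcdh10, chr3:45378148-45378397, + strand: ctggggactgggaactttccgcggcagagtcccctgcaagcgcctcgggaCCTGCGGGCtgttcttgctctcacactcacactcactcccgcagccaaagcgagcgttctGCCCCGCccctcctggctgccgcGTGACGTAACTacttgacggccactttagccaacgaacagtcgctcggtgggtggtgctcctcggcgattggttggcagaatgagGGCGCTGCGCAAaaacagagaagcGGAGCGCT
Irs2, chr8:11008930-11009179, - strand: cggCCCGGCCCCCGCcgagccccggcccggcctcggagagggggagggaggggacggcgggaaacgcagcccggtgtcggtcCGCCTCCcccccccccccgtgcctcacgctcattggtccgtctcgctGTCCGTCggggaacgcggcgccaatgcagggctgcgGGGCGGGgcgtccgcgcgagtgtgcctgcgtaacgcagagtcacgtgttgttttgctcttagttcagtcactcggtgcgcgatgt
Jun, chr4:95052223-95052472, - strand: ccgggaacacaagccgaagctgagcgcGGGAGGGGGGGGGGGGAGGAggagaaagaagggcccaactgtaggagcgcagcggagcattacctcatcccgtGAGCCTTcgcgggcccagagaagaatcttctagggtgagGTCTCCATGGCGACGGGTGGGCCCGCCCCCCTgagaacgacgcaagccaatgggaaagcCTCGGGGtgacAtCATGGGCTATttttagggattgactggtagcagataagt
Sncb, chr13:54758597-54758846: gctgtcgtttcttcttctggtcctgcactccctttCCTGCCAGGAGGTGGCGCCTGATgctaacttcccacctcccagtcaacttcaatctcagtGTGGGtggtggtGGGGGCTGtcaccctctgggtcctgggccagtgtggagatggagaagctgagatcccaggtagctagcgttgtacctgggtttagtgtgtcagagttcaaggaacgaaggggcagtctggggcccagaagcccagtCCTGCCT
near Ezh2, chr6:47651078-47651327: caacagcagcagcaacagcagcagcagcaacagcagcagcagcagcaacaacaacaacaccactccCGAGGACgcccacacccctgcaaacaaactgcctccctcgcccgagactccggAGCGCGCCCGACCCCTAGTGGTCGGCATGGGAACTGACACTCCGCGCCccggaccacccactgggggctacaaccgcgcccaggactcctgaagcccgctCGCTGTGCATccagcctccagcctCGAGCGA
Each 250-base window was picked for the most shared footprint bases, among the gene's RefSeq start sites or, at Sncb and near Ezh2, among positions outside exons. So picked, shared footprints covered 47 bases at Pcdh10, 33 at Irs2, 77 at Jun, 43 at Sncb and 72 near Ezh2. Windows picked the same way in other members and not shown held fewer, such as 7 upstream of Pou3f2, 2 near Nnmt and 24 inside Kdm6b. The windows held 22, 34 and 15 CpG dinucleotides upstream of Pcdh10, Irs2 and Jun, and 4 and 18 at Sncb and near Ezh2. The Pcdh10 window also overlaps an exon of the noncoding gene 2610316D01Rik.

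Windows of 41 bases around motifs that lay in a footprint of both libraries show examples of such sites at single-base scale, chosen after their values were seen. The NRF1 core GCGCATGCG is the binding sequence of a factor of housekeeping and mitochondrial genes, and the CRE TGACGTCA is that of CREB, which neurons use to switch on genes with activity. The EGR motif GCGTGGGCG is bound by the early growth response factors. Each line reads the strand on which the motif is spelled this way, which is the + strand where none is named, and the capitals again mark bases in a footprint of both libraries.
NRF1 core at Pcbp1, chr6:86526576-86526616: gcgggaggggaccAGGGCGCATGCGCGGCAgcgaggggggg
NRF1 core at Alkbh5, chr11:60537903-60537943: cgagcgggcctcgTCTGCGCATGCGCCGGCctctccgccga
NRF1 core at Ubn2, chr6:38433887-38433927: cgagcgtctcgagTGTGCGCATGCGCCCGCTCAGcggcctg
CRE at Rap2a, chr14:120477871-120477911: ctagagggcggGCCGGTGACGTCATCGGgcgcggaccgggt
CRE at Camk2d, chr3:126596218-126596258: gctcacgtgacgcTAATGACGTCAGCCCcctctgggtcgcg
CRE at Jund, chr8:70698719-70698759: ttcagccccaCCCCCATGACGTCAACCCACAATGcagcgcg
CRE at Dusp1, chr17:26508592-26508632: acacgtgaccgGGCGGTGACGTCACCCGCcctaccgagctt
EGR at Pabpc1, chr15:36609007-36609047, - strand: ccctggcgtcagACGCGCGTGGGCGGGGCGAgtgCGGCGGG
Sites were shown only where every base of the motif lay in a footprint of both libraries, so unbroken capitals over the motif follow from that choice. In all 8 windows shown the capitals ran past the motif on at least 1 side. This does not hold for every such site: an EGR site at Phyhipl, not shown, had capitals over the 9 motif bases only. Jund is a subunit of the AP-1 factor, Dusp1 a phosphatase that shuts off MAP kinases, and both are on the lists of activity genes described further down. Camk2d is a subunit of calcium/calmodulin-dependent kinase II, and Rap2a a small GTPase.

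The files differed in size: replicate 1 had 93545 peaks, 223251 footprints and 34.8 Mb of open regions, and replicate 2 had 79144 peaks, 170016 footprints and 27.7 Mb. The number of cuts behind each library is unknown. The male label of replicate 2 did not match its peaks. Around Xist, the RNA that silences an X chromosome in females, replicate 2 had 3 peaks, the highest of 1.01, and replicate 1 had none. Kdm5d, Ddx3y, Uty and Eif2s3y on the Y chromosome had peaks of 0.424 to 0.890 in replicate 1 and none in replicate 2. Where the libraries are set against each other, the second is therefore called the library labelled male replicate 2. At marker genes of the labelled tissue, Rbfox3 and Syt1, expressed by neurons, lay at members, Prox1 of dentate granule cells lay at a shorter region of 879 bp in replicate 1 and 588 bp in replicate 2, and none of 39 HOX genes, which mark the hindbrain and trunk, lay at any region shared by the libraries. The tissue holds several cell types, so fewer cells of a type and less open chromatin per cell cannot be told apart.

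Members had a median length of 1927 bp in replicate 1 (range 1501 to 7033 bp) and of 1807 bp in the library labelled male replicate 2 (range 1500 to 6393 bp). Lengths were close in most members: 88.7% differed by less than 1.25-fold between the libraries, 1083 were longer in replicate 1, 452 were longer in the other library, and 13 differed more than 2-fold. Over the 1539 members the rank correlation between the libraries was 0.744 for length and 0.903 for the highest peak value, both within a range that the rule had already narrowed. The members made up 52.1% of the 2955 regions of 1500 bp or more in replicate 1, and the 1536 regions they matched made up 83.1% of the 1849 such regions in replicate 2. At the threshold, the region of Fez1, which encodes an axon growth protein, was just inside with 1651 bp in replicate 1 and 1500 bp in replicate 2, as was that of Gpr85, an orphan receptor of the brain, with 1558 and 1501 bp. Osbpl8, a lipid transfer protein of the endoplasmic reticulum, was just outside with 1499 and 1571 bp.

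**Figure D1:**
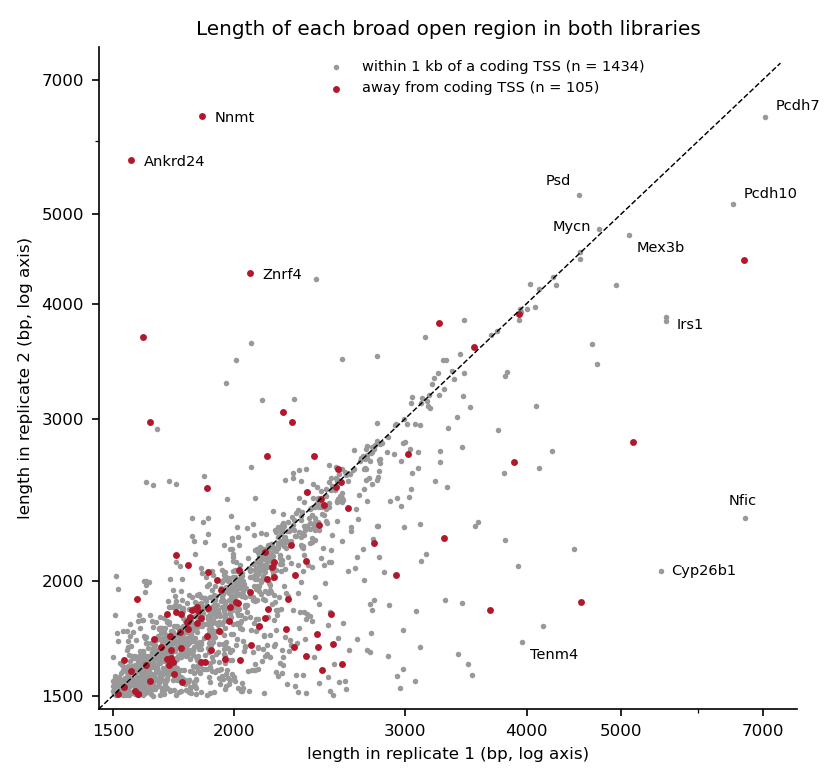
Length of each of the 1539 broad open regions in replicate 1 (x axis, bp, log scale) and in replicate 2 (y axis, bp, log scale), 1 point a region; grey points lie within 1 kb of a transcription start site (TSS) of a coding gene and red points do not. Most points lie near the dashed line of equal length, Pcdh7 is the longest at 7033 and 6386 bp, and Nfic, Cyp26b1, Ankrd24 and Nnmt lie farthest from the line.

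Broad open regions lay at promoters. A TSS of a protein-coding gene was inside or within 1 kb of 93.2% of members (1434 of 1539), against 34.1% of the 33717 shorter regions of 150 to 1499 bp that the libraries also shared. The rule used no gene annotation. Of the other members, 42 lay inside a coding gene, 32 outside coding genes, and 31 at a TSS of another gene type such as a long noncoding RNA. The share climbed with length: it was 9.13% at 150 to 299 bp, 15.4% at 300 to 499 bp, 49.8% at 500 to 999 bp and 83.6% at 1000 to 1499 bp, and in members 94.1% at 1500 to 1999 bp, 92.5% at 2000 to 2999 bp and 88.9% from 3000 bp upward. The rise was thus complete near 1500 bp, and the longest members lay at promoters slightly less often. A longer region has more room to come near a TSS, and that part was not tested. The SD between libraries was at most 0.250 percentage points below 3000 bp and 1.43 above.

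**Figure D2:**
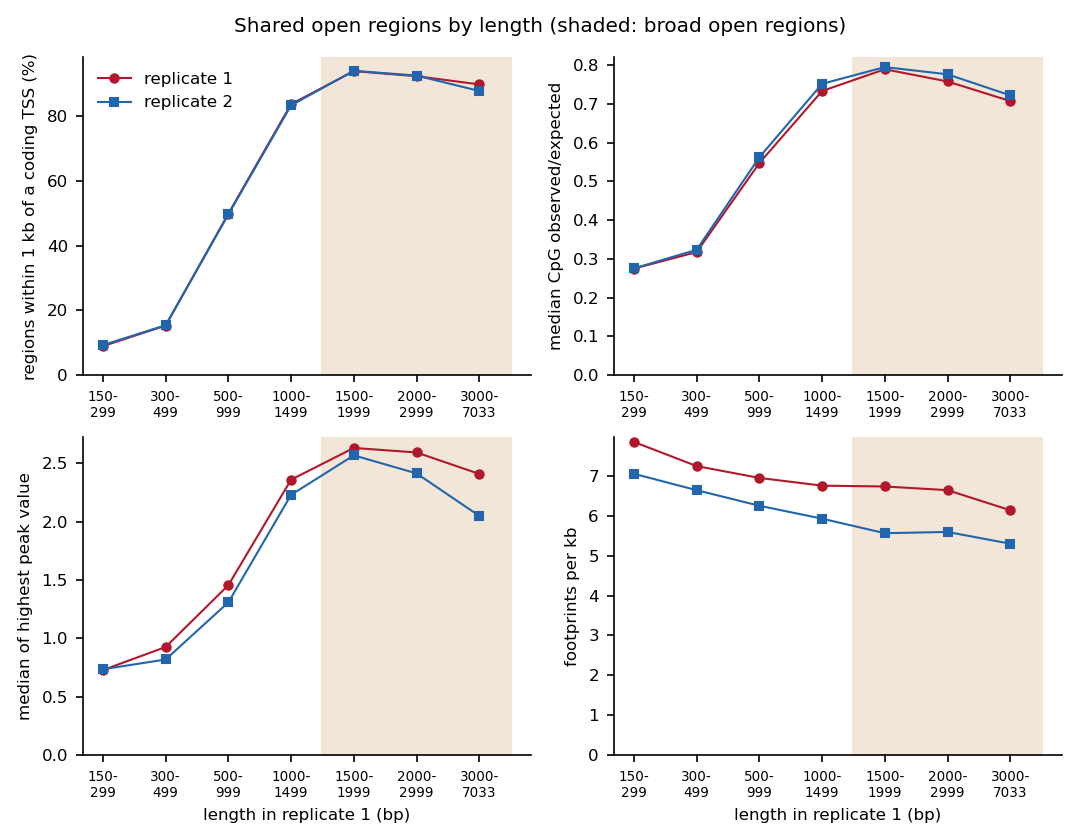
Regions shared by both libraries, grouped by their length in replicate 1 (x axis, bp); the shaded groups of 1500 bp or more are the broad open regions. The y axes give the share within 1 kb of a coding TSS, the median ratio of observed to expected CpG, the median of the highest peak value in a region and the footprints per kb, with 1 line a library: the first 3 level off or dip beyond 1500 bp, while footprints per kb are lower in the longest group than in the shortest.

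Members were rich in CpG. The median ratio of observed to expected CpG was 0.778 ± 0.007 in members and 0.411 ± 0.005 in shorter shared regions, and the median GC content was 63.6 ± 0.4% and 54.4 ± 0.1%. A GC content over 50% with a CpG ratio over 0.6, the usual thresholds of a CpG island, was met by 86.5% of members and 29.4% of shorter regions. The gap was smaller within promoters, where the median ratio was 0.785 ± 0.006 in members and 0.745 ± 0.009 in the 9228 promoter regions of 500 to 1499 bp, and 89.1% and 78.5% met the thresholds. Away from coding TSS the gap was wider, with 0.626 ± 0.024 in the 105 members and 0.360 ± 0.008 in the 5991 shorter regions of 500 bp or more. Within members longer regions had slightly lower ratios, with a rank correlation of -0.136 between ratio and length in replicate 1.

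Measured from the most upstream TSS inside them, the regions reached farther into the gene than upstream of it. In genes with several TSS this starting point gives the downstream side its greatest length, and its part in the difference was not tested. Among members at the TSS of 1 coding gene with the TSS inside, 1229 in replicate 1 and 1222 in replicate 2, the median extent downstream of the most upstream TSS was 1199 and 1129 bp, and the median extent upstream was 727 and 694.5 bp. Downstream was the longer side in 76.6% and 74.2% of them. Shorter promoter regions leaned the same way, with the longer side downstream in 78.0% and 74.8%, at medians of 577 and 521 bp downstream and 355 and 330 bp upstream. Members thus reached farther on both sides, with a like share leaning downstream. Coding sequence of 0.5 kb or more lay in 17.6% of promoter members and in 3.12% of shorter promoter regions, while its share of all bases was 12.4% and 10.9%. In 100 members the coding sequence came to 1 kb or more.

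**Figure D3:**
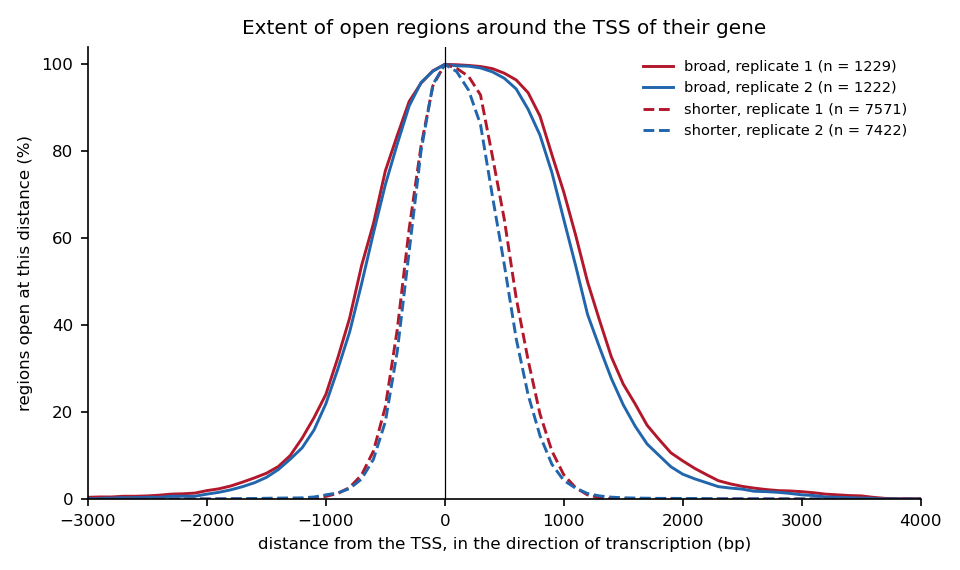
Share of open regions (y axis, %) that were open at each distance from the TSS of their gene (x axis, bp in the direction of transcription), for broad open regions (solid lines) and shorter promoter regions of 500 to 1499 bp (dashed lines) in replicate 1 (red) and replicate 2 (blue). Distances start at the most upstream TSS inside the region. At 1000 bp downstream 70.6% and 64.3% of broad regions were open, against 5.59% and 4.30% of shorter ones; at 1000 bp upstream it was 24.1% and 21.9%, against 0.621% and 0.970%.

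Footprints within members were densest just upstream of the TSS and thinned out in the gene. In the 100 bp before the TSS members had 13.3 footprints per kb in replicate 1 and 13.9 in replicate 2. From 500 to 600 bp downstream they had 4.88 and 3.03 per kb, and from 1000 to 1100 bp, counting only members still open there, 3.29 and 2.65. From 1000 to 900 bp upstream it was 5.14 and 3.43. Footprint density in members was thus lowest in the part of the region farthest into the gene, of the distances given here. Shorter promoter regions of 500 to 1499 bp had the same pattern, with 13.3 and 13.8 per kb in the 100 bp before the TSS. Counting only regions still open, they had 2.29 and 1.47 per kb from 500 to 600 bp downstream. From 1000 to 1100 bp they had 1.18 and 1.03. The thinning was therefore not particular to members, whose density at these downstream distances was higher.

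Peak values and footprints come from the same cuts as the lengths that chose the members, so they are given only to describe them. Each member held at least 1 peak in each library, with a median of 3 peaks and up to 12 in replicate 1 and 14 in replicate 2. The share of shorter shared regions with a peak was 99.9% in each library, so holding a peak was not particular to members. The highest peak value of a member, in the authors' signal, had a median of 2.54 ± 0.09, against 1.05 ± 0.05 in shorter shared regions and 2.13 ± 0.08 in shorter promoter regions. Length and height were nearly unrelated among members, with rank correlations of -0.031 in replicate 1 and -0.028 in replicate 2 over 1539 regions. Footprints came to 6.09 ± 0.76 per kb in members and 6.71 ± 0.49 per kb in shorter regions, and were lower in members within each library, at 6.63 against 7.05 per kb in replicate 1 and 5.55 against 6.36 per kb in replicate 2. Peaks covered 59.0 ± 1.2% of member bases and 62.2 ± 1.0% of the bases of shorter regions. The direction was the reverse against the regions most like the members. Peaks covered 52.2 ± 2.3% of the bases of shared regions of 1000 to 1499 bp. Among promoters they covered 58.6 ± 1.2% in members and 52.3 ± 2.0% in shorter regions of 500 bp or more. Of the footprints in the parts open in both libraries, 39.2% of those of replicate 1 and 49.4% of those of replicate 2 met a footprint of the other library in members, against 40.0% and 47.1% in shorter regions.

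The 15 longest members by mean length were 14 coding promoters and a region inside Mid1, of 6701 bp in replicate 1 and 4458 bp in replicate 2, of which 48.7% was repeat-masked. Pcdh7, a protocadherin that joins cells through its extracellular cadherin repeats, lay in the longest region, 7033 bp in replicate 1 (chr5:57714632-57721664) and 6386 bp in replicate 2, with 12 and 13 peaks and 38 and 33 footprints. Pcdh10, another protocadherin, had 6521 bp (chr3:45375635-45382155) and 5130 bp, and Pcdh17 4534 bp (chr14:84444185-84448718) and 4555 bp. These 3 regions covered 2560, 2688 and 2559 coding bases. In protocadherin genes a long exon near the start encodes the extracellular part. Their highest peak values were 2.23 and 1.53 for Pcdh7, 3.36 and 3.16 for Pcdh10, and 1.68 and 1.08 for Pcdh17, so the longest region was not the strongest.

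Of 12 non-clustered protocadherin genes, a list chosen after these values were seen, 6 lay at members, where 7.38% of all protein-coding genes did. The other members were those of Pcdh8 with 3317 bp in replicate 1 and 2928 bp in replicate 2, Pcdh9 with 2014 and 2048 bp and Pcdh11x with 1606 and 1608 bp. None of the 56 clustered protocadherin genes lay at a member, and 1 lay at a shorter shared region. The clustered genes are read from many alternative promoters, of which each neuron uses few.

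Both insulin receptor substrates that carry most of the signal from the insulin receptor had long regions. Irs1 had 5568 bp in replicate 1 (chr1:82286721-82292288) and 3870 bp in replicate 2, and Irs2 had 4946 bp (chr8:11005177-11010122) and 4189 bp. Foxo3, a transcription factor that insulin signalling keeps out of the nucleus, had 5569 bp (chr10:42273527-42279095) and 3829 bp, and its relative Foxo1 1928 and 1630 bp. The MYC family members Mycn and Myc, transcription factors of cell growth, had 4747 and 4818 bp (chr12:12938362-12943108) and 4253 and 4277 bp (chr15:61984186-61988438). At Irs1 and Irs2 the region took in 3693 and 3254 coding bases. Irs1 and Foxo3 were among the members whose length differed most among the 15 longest, both shorter in the library labelled male replicate 2, while Mycn and Myc had nearly equal lengths.

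The remaining long promoters had varied roles. Mex3b, an RNA-binding ubiquitin ligase, had 5092 bp in replicate 1 and 4750 bp in replicate 2. Psd, an exchange factor for the small GTPase ARF6 at synapses, had 4533 and 5244 bp. Ptprg, a receptor tyrosine phosphatase that binds contactins, had 4539 and 4467 bp, and Ephb1, a receptor for ephrin B that guides axons, 4673 and 3618 bp. Ptma, which encodes the small acidic chromatin protein prothymosin alpha, had 4290 and 4192 bp. Nfic, a nuclear factor I gene, was the least alike, with 6710 bp in replicate 1 and 2339 bp in the library labelled male replicate 2. Further receptors of cell contact lay at long members: Epha7 had 3291 and 3227 bp, the latrophilin Adgrl3 3676 and 3696 bp, and its ligand family's member Tenm4 3954 and 1715 bp. Of 14 Eph receptor genes 5 lay at members, and 2 of 4 teneurins and 2 of 3 latrophilins, counts over lists chosen after values were seen. The share over all protein-coding genes was 7.38%.

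Lists of genes that neurons switch on with activity had the highest shares at members, apart from small families chosen after their values were seen. Among all 21644 protein-coding genes (Y chromosome left out), 1598 had a TSS in or within 1 kb of a member, which is 7.38%. Of 22 immediate early transcription factors 10 did (45.5%), and of 20 activity-induced effectors 10 did. Another 10 and 8 lay at shorter shared regions only. Housekeeping genes, which every cell expresses, stood at 5 of 20 (25.0%), so a share above 7.38% was not limited to neuronal lists. No list was tested, because the lists were chosen with results of these data known.

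Jun, a subunit of AP-1, had the longest region of the immediate early factors, 4117 bp in replicate 1 and 4144 bp in replicate 2, with highest peaks of 3.55 and 3.51 and 35 and 24 footprints. Klf10 had 3243 and 3362 bp, Jund 2159 and 2095 bp, Fosl2 2000 and 1918 bp, and Junb 1667 and 1593 bp. Egr1, a zinc finger factor induced within minutes of synaptic input, had 3915 bp in replicate 1 and 2072 bp in the library labelled male replicate 2, and its relative Egr3 2739 and 1682 bp. The other 3 were Atf3, Crem, a relative of CREB, and Nr4a3, between 1516 and 2052 bp in both libraries. Jun and Klf10 thus had like lengths in the libraries, whereas Egr1 and Egr3 were longer in replicate 1.

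Several other widely used markers of activity lay at shorter regions. Fos, the partner of Jun in AP-1, had a region of 774 bp in replicate 1 and 805 bp in replicate 2, with peaks of 2.97 and 2.25. Npas4 had 1122 and 829 bp, Nr4a1 811 and 730 bp, Fosb 1295 and 1084 bp, and Arc, a capsid-like protein of dendrites from the effector list, 1073 and 702 bp with peaks of 3.32 and 3.73. Their peaks lay in the range of the members, and their regions were shorter than 1500 bp in both libraries.

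Among the effectors, Dusp4 had 2518 bp in replicate 1 and 2510 bp in replicate 2, Dusp1 2192 and 2034 bp and Gadd45g, a stress sensor linked to DNA demethylation, 2078 and 2019 bp. Trib1, a pseudokinase, had 2116 and 1817 bp. Bdnf, the growth factor that supports synapses, had 1745 and 1779 bp with peaks of 1.87 and 1.13, and Homer1, a scaffold of the postsynaptic density, 1747 and 1645 bp with peaks of 4.09 and 3.60. The remaining members of the list, Nrn1, Rheb, Pim1 and Sik1, lay between 1619 and 1942 bp in both libraries.

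**Figure D4:**
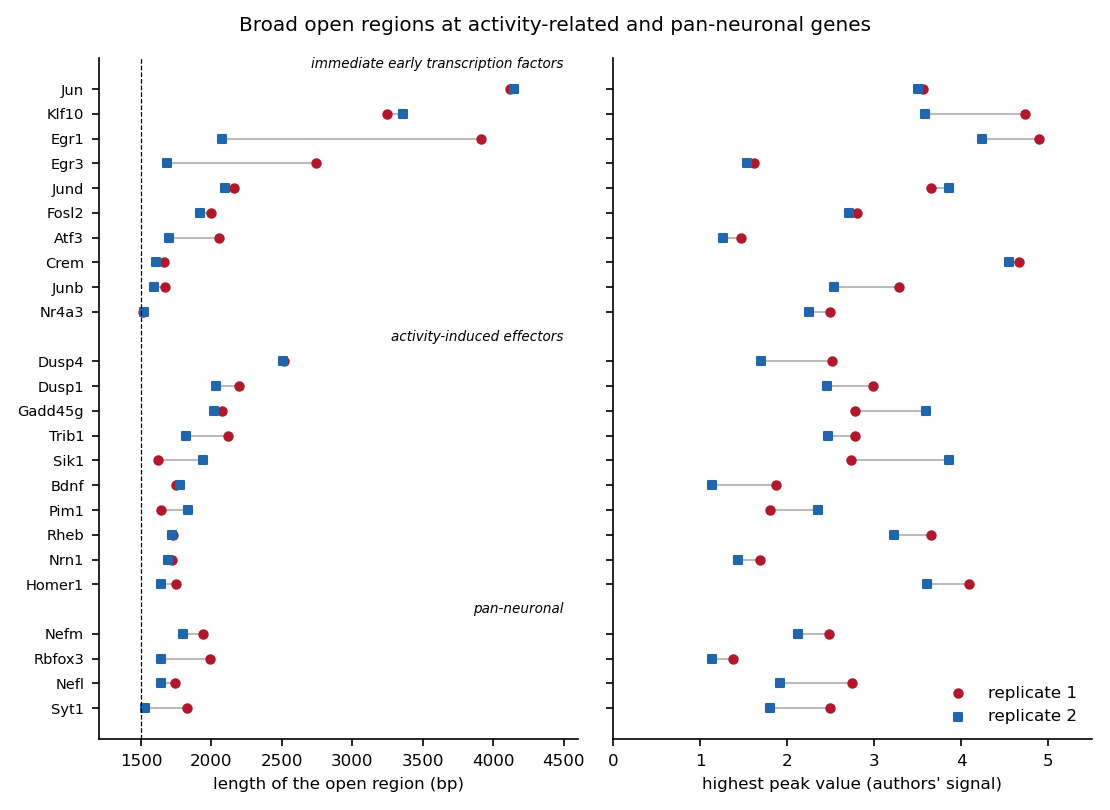
Length in bp (left) and highest peak value in the authors' signal (right) of the broad open region at each gene of the immediate early, activity-induced effector and pan-neuronal lists, in replicate 1 (red circles) and replicate 2 (blue squares), with a grey line joining the libraries. Jun is the longest of the activity genes in both libraries, Egr1 shows the widest gap between them at 3915 and 2072 bp, and the dashed line marks the 1500 bp minimum.

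Neurotransmitter receptors lay at members in 8 of 25 cases (32.0%), against the 7.38% of all genes. Grin2a, a subunit of the NMDA receptor, had the longest region, 2630 bp in replicate 1 and 2610 bp in replicate 2, with peaks of 1.85 and 1.30 and 24 and 14 footprints. The GABA-A receptor subunit Gabrb2 had 2060 bp in replicate 1 and 1847 bp in replicate 2, and Gabra2 1900 and 1732 bp. The AMPA receptor subunits Gria2 and Gria4, the kainate receptor subunit Grik3 and the GABA-B receptor subunit Gabbr1 had 1521 to 1842 bp. Grin1, the shared subunit of all NMDA receptors, had only 531 and 647 bp, and Gria1 240 and 367 bp.

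Transcription factors of excitatory neurons lay at members in 7 of 26 cases (26.9%). Fezf2, which specifies deep-layer projection neurons of the cortex, had 3301 bp in replicate 1 and 3475 bp in replicate 2, with peaks of only 1.54 and 1.10. Sox11 had 2766 and 2753 bp, Cux1 2556 and 2455 bp and Sox4 2446 and 2437 bp. Bhlhe22 and Tbr1 were shorter, at 1608 to 2244 bp. Of 19 inhibitory neuron factors 3 lay at members (15.8%), with Nr2f1 at 2099 and 2456 bp. Pan-neuronal genes counted 4 of 15 (26.7%): Nefm, Rbfox3, Nefl and Syt1, between 1527 and 1987 bp. Pou3f2, a POU factor of neural cells, had the longest region of the homeobox list, 4078 and 3963 bp with peaks of 1.24 in both libraries, while that list as a whole stood at 6 of 129 (4.65%).

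Glial and vascular lists held at most 1 gene each at members, which for astrocytes (7.14%), oligodendrocyte precursors (1 of 10) and microglia (7.69%) is near or above the 7.38% of all genes. Sox9, a factor of astrocytes and stem cells, was the 1 of 14 astrocyte genes, with 2121 bp in replicate 1 and 1949 bp in replicate 2. Cspg5 was the 1 of 10 oligodendrocyte precursor genes, and Sall1 of 13 microglial genes. No gene of the oligodendrocyte, endothelial, mural, or ependymal and choroid plexus lists, 13, 12, 10 and 10 genes, lay at a member. Nor did any of 41 patterning factors of other regions, 39 HOX genes, 16 erythroid, liver, muscle and germ line genes or 1133 olfactory receptors. The dentate granule and CA pyramidal list had 1 of 18 at a member, Nectin3, an adhesion protein, with 2812 and 2591 bp, and 11 at shorter regions only.

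Of 83 cytosolic ribosomal protein genes, which are transcribed at high rates in every cell, 75 lay at shorter shared regions and 1, Rpl7, at a member of 2228 bp in replicate 1 and 2082 bp in replicate 2. Replication-dependent histone genes counted 3 of 67 (4.48%), and zinc finger genes with Zfp-type symbols 28 of 386 (7.25%), close to the 7.38% of all genes. The 5 housekeeping genes were Actb, Eef1a1, Hsp90ab1, Hspa8 and Ywhaz, with Ywhaz, a 14-3-3 protein, at 2506 and 2428 bp. The imprinted genes at members were Peg3, Peg10 and Gnas, 3 of 17.

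**Figure D5:**
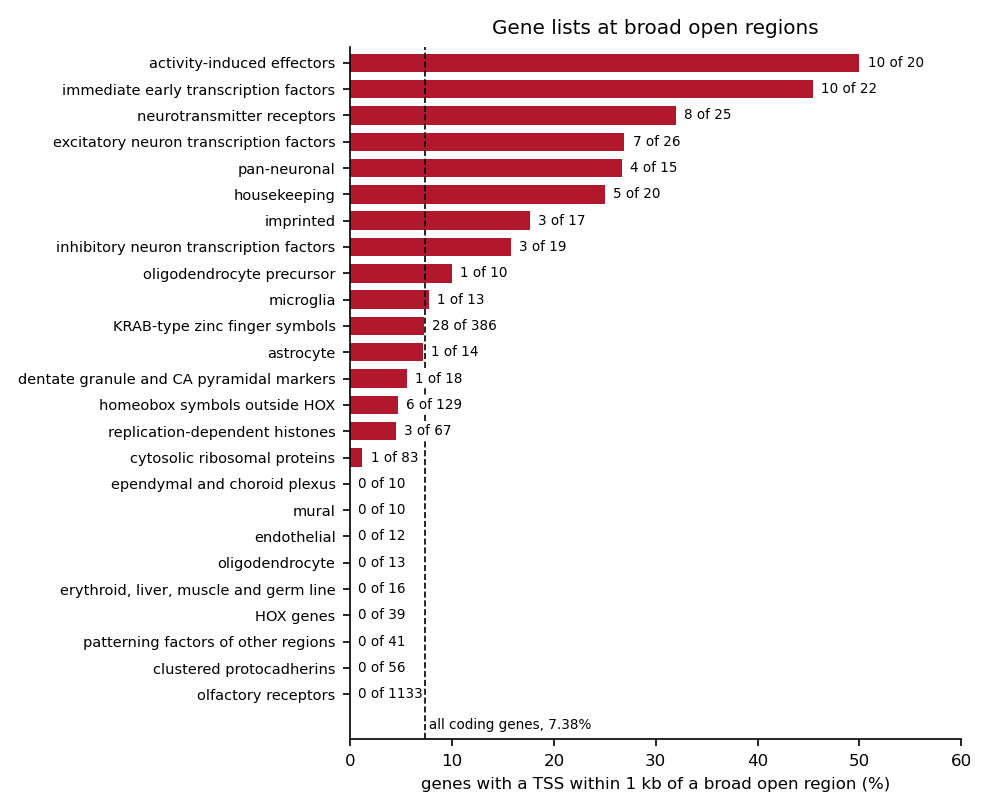
Share of each gene list (y axis) with a TSS in or within 1 kb of a broad open region (x axis, %), with the counts beside the bars; the dashed line is the share of all coding genes, 7.38%. Activity-related lists are at the top with 10 of 20 and 10 of 22 genes, and 9 lists, among them HOX genes and olfactory receptors, have none.

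The highest peaks in members were far above their median of 2.54. The member with the highest mean peak value, 7.70 in replicate 1 and 7.55 in replicate 2, lay outside coding genes, 55020 bp from the nearest coding TSS, that of Ezh2 (chr6:47650050-47651701). Cited2, a coactivator of the hypoxia and nuclear receptor pathways, had 6.97 and 5.77, Nfat5, a factor of the osmotic stress response, 6.39 and 5.98, and Polg, the polymerase of mitochondrial DNA, 6.61 and 5.72. A region inside Mid1 on the X chromosome had 6.49 and 8.37. Mid1 spans the pseudoautosomal boundary of the mouse X chromosome, and this region has 3 copies of 95% identity or more elsewhere in the reference, the longest of 3663 bp. Reads that match several copies equally well cannot be told apart. In all, 9 members held a copy of 500 bp or more, 5 of them at Mid1 and the neighbouring Gm21887. The best identity ran from 95.4% at Gm5953 to 100% at Gm21887. The members with the lowest peaks lay inside Ephb1, where adjoining stretches of 2417 and 2161 bp in replicate 1 met a single replicate 2 region of 2728 bp with highest peaks of 0.311 and 0.261 in replicate 1 and 0.232 in replicate 2.

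The 5 members densest in footprints were all coding promoters, 2 of them shared by a pair of genes. Bad and Gpr137, which start from a common promoter region, had 15 footprints over 1542 bp in replicate 1 (9.73 per kb) and 18 over 1567 bp in replicate 2 (11.5 per kb). Zfp646 and Zfp668 had 11.3 and 9.88 per kb, Nr1d2, a repressor of the circadian clock, 20 footprints over 1665 bp and 14 over 1562 bp, and Eif4g2, a translation factor, 13.0 and 7.82 per kb. Ppp2r3d, a regulatory subunit of phosphatase 2A, combined length with density, with 40 footprints over 3726 bp and 38 over 3737 bp. Over all members the density was 6.63 per kb in replicate 1 and 5.55 per kb in replicate 2. In all 169 members held the TSS of 2 coding genes and 1, at Hook3, Rnf170 and Gm45692, that of 3. Members with 2 or more genes were 11.9% of promoter members, close to the 10.2% among shorter promoter regions.

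Members without a TSS within 1 kb were longest near Nnmt, Ptgis, Kdm6b, Ankrd24, B4galt5, Myo1d, Sncb and Znrf4, apart from Mid1. Inside Kdm6b, a demethylase of histone H3 lysine 27, the region had 3931 bp in replicate 1 (chr11:69408359-69412289) and 3894 bp in replicate 2, a CpG ratio of 0.609 and peaks of 2.12 and 2.58, and a further member of 2188 and 2067 bp lay 3548 bp from the same gene's TSS on its other side. The region inside Myo1d lay 5466 bp from the TSS of Cdk5r1, which encodes the activator p35 of the neuronal kinase Cdk5, with 3249 and 3807 bp and 24 and 25 footprints. It had a CpG ratio of 0.243, far under the member median of 0.778. Sncb, which encodes beta-synuclein, held 3881 and 2688 bp, 4653 bp from its TSS. The region near Sox4, outside coding genes and 3964 bp from the TSS, had 2442 and 2298 bp and peaks of 3.46 and 3.85, higher than the 3.29 and 2.22 of the promoter member of the same gene.

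Lengths that differed most between the libraries lay in part at these regions away from promoters. Ankrd24 had 1566 bp in replicate 1 and 5727 bp in the library labelled male replicate 2, and the region near Nnmt 1854 and 6393 bp. That near Znrf4 had 2076 and 4315 bp. Inside Zfand3 the lengths were 1612 and 3682 bp, but the intervals, chr17:30198286-30199897 and chr17:30194686-30198367, overlapped only at their ends. Near Cplx2 they were 1637 and 2977 bp, but the same replicate 2 region also met another replicate 1 member, of 2293 bp. Together these 2 members came to 3930 bp in replicate 1, more than in replicate 2. None of these 5 lay within 1 kb of a coding TSS. The 5 that were longest relative to the other library in replicate 1 were Nfic, Cyp26b1, 9530059O14Rik, Fat4 and Tenm4, of which 4 are coding promoters. Cyp26b1, the enzyme that breaks down retinoic acid, had 5500 and 2050 bp, and Fat4, a giant cadherin, 4158 and 1787 bp. With 1 library on each side, whether these differences come from the animals, the tissue pieces or the libraries cannot be told apart. On the X chromosome there were 44 members, 0.257 per Mb, against 0.607 per Mb on the autosomes. Replicate 1 regions under 1500 bp were also fewer there, 4461 against 5904 to 16416 on each autosome. The low number on X was thus not particular to members.

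The central 300 bases of members differed from those of shorter regions in the motifs they held, searched as exact letters on both strands. This window covers only part of each member, but reaches beyond the ends of the 8749 shorter regions of 150 to 299 bp. The shares therefore do not count all sites of a member. The GC box GGGCGG, bound by SP and KLF factors, occurred in 68.9% of members and 30.9% of shorter shared regions, but in 70.9% and 66.2% of promoters alone. The proneural E-box CAGATGG was in 2.47% of members and 11.8% of shorter regions, the AP-1 site TGANTCA in 2.01% and 7.68%, and the NFI motif TTGGCA in 6.95% and 18.7%. Among promoters these 3 differed less, with 2.23% and 3.27%, 1.81% and 2.73%, and 6.83% and 8.12%. Around the strongest replicate 1 peak the promoter shares were 3.14% and 3.35%, 2.37% and 3.09%, and 8.09% and 9.51%, so the E-box shares were nearly alike there. The ETS site CCGGAAGT was in 2.09% of promoter members and 7.04% of shorter promoters, the NRF1 core in 1.33% and 2.74%, and the CRE in 0.488% and 2.48%. In 300 bases around the strongest replicate 1 peak these came to 3.56% and 8.08%, 2.37% and 3.67%, and 2.58% and 3.14%. For these 3 motifs the choice of the 300 bases moved the share more in members than in shorter promoters, measured as a ratio. An EGR motif may overlap a GC box, and the part of base composition in these shares was not tested.

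How often a motif lay in a footprint was alike in members and shorter regions for the motifs with the highest shares. The middle base of the NRF1 core lay in a footprint at 70.5% of 149 sites in replicate 1 and 73.0% of 148 in replicate 2, against 74.3% and 74.4% in shorter regions. A palindromic NRF1 site counts on each strand. The CRE stood at 48.3% and 57.8%, against 46.4% and 54.3%, and the EGR motif at 38.5% and 36.3%, against 37.3% and 37.4%. All member bases lay in footprints at 7.03% and 5.99%. Sites of the AP-1 motif were in a footprint in 5 of 386 cases and 6 of 360 (1.67%) in members, under that level, and at 3.70% and 3.74% in shorter regions. The proneural E-box was at 8.70% and 6.13% in members and 19.3% and 20.4% in shorter regions, the RFX motif GTTGCCAT at 13.0% and 18.5% against 24.4% and 28.0%, and the CTCF core CCCTCNNG at 8.75% and 8.80% against 13.4% and 14.2%. In the part open in both libraries 92 of 148 NRF1 sites, 50 of 112 CREs and 24 of 90 EGR sites lay in a footprint of both, spread over 52, 46 and 24 members. DNase I cuts some sequences more readily than others, and its part in these shares was not tested.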

How the data were processed

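DNase-seq was measured in 2 libraries of 1 group. Per the list of files deposited with each library, the authors made each file from that library's own alignments on mm10. Not given in the sources used here: aligner, callers and versions. The deposited FDR column, a p-value type measure, holds runs of bases under 0.05. The deposited peak signal has a scaling that is not stated, so depth is unknown. The footprint lists carry a constant in their other deposited column, and only their positions were used.

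Regions, overlaps of at least 1 bp, sequence and motifs were computed in Python 3.11.15 (pandas 2.3.3, numpy 2.4.6), with genes from GENCODE M21 basic and sequence from GRCm38.p6; the merging and overlap steps were checked on simulated data. Upstream windows are from the RefSeq promoter table on GRCm38; it held 1234 of the 1598 genes at members. Copies of at least 95% identity were searched with BLAST+ 2.17.0. Regions of 150 to 1499 bp in replicate 1 that overlapped a replicate 2 region of at least 150 bp served for comparison. A promoter lay within 1 kb of a TSS of a protein-coding transcript. The members and gene lists were chosen with earlier results of these data known. Named are the 15 longest members, the 5 strongest, the 5 densest in footprints, the 10 longest without a TSS, those with most genes, the 5 most unequal each way, those at the threshold and up to 4 genes a list; the weakest members, the regions near Sox4 and Kdm6b, printed sites, and further genes were chosen after values were seen. Some genes that the rule names are not reported here.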

Additional observations from a re-analysis of the deposited data

How the results depend on the processing

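Alternatives came to 84 comparisons over 9 results; 45 stayed within the spread between libraries, or within 1.5 times for a count, and 39 did not; for promoter shares the SD between libraries was 0. The number of members was 959 at an FDR of 0.01, 518 at 0.001, 5212 with a minimum of 1000 bp and 441 with 2000 bp, and 1849 to 2955 when 1 library alone was used, where replicate 1 alone gave 2955. Promoter shares stayed between 90.4% and 95.2% under settings that used both libraries: 93.5% and 94.2% at the stricter FDRs, 90.4% and 92.7% at the other minimum lengths, 91.5% with runs up to 50 bp apart merged, 93.7% with reciprocal overlap, 93.4% on autosomes, 93.5% without members with copies (chosen after seeing the data), 90.7% with the TSS inside, 93.8% within 2.5 kb and 95.2% for all genes. Single libraries gave 80.1% to 87.9%. CpG ratios were 0.796, 0.819, 0.767, 0.755 and 0.763 at the 2 FDRs, the 2 lengths and the merged runs, and 0.720 to 0.765 with 1 library. Footprints per kb were 7.15 at an FDR of 0.001, and 5.36 to 6.09 with 1 library. Bases in peaks were 61.0%, 64.3%, 54.7% and 62.7% at the FDRs and lengths, 54.1% with the stricter peak list, and 58.3% to 60.5% with 1 library. The highest peak value was 2.73 and 2.82 at the FDRs, 2.44 with merged runs, and 2.19 to 2.36 with 1 library. The median length was 1372.5 and 2371 bp at the 2 minimum lengths, and 1787 to 1837 bp with 1 library. Against shorter regions, promoter share, CpG ratio and peak value were higher in members and footprints per kb lower under all 6 definitions compared, while bases in peaks turned higher in members, 64.3% against 63.6%, at an FDR of 0.001 and, 62.7% against 61.4%, at 2000 bp; the cause was not tested. Lists above the share of all genes numbered 10, and 9 within 10 kb. Motifs more frequent in members numbered 8 of 18 in the central 300 bases, and 10 in 300 bases around the strongest replicate 1 peak. No member was repeat-masked over more than 50% of its bases, so leaving such members out kept 1539 members, 93.2% at promoters and a CpG ratio of 0.778. No paired analysis was possible because the libraries form 1 group.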

Other observations

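Regions that were broad in 1 library only had lower promoter shares, CpG ratios and peaks than the 93.2%, 0.778 and 2.54 of the members. The 1416 of replicate 1 lay at a coding promoter in 66.0% of cases and had a median CpG ratio of 0.619 and a median highest peak of 1.75. The 310 of the library labelled male replicate 2 had 61.6%, 0.587 and 1.66. In 669 of the 1416 the other library had a region of 1000 to 1499 bp, and in 236 it had none. The longest of all, 9005 bp outside genes and 22730 bp from the TSS of Map1s (chr8:70928662-70937666), had a CpG ratio of 0.226, a highest peak of 0.664 and no replicate 2 region. Others of replicate 1 with little in the other library were 8097 bp at the promoter of Lemd1 and 6304 bp at that of Lgals3bp, and 7790 bp inside Kalrn, which encodes an exchange factor of dendritic spines. The longest of the library labelled male replicate 2 alone were 4855 bp inside Gnao1, the G protein alpha subunit of many neuronal receptors, with a highest peak of 0.290, and 4774 bp at Nfatc4, a calcium-dependent transcription factor. Each of these regions rests on 1 library.

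Members lay near each other in 20 groups within 5 kb, 44 members in all and up to 3 in a group. In and near Tnrc18 there were 3 members over 9464 bp, at Marcks 2 over 5684 bp and at Sin3a, a scaffold of histone deacetylases, 2 over 6174 bp. MicroRNA genes in members numbered 32 of 2202 annotated, and another 118 overlapped a shorter shared region only. Mir124a-3, a locus of the brain microRNA miR-124, lay in a member of 2557 bp in replicate 1 and 2641 bp in replicate 2, with highest peaks of 2.36 and 2.44. The next member, of 1621 and 1620 bp, lay outside coding genes. Most of the others lay at the promoter of a coding gene, such as Mir1903 at Nrp1, a receptor of semaphorins, with 3436 and 3177 bp.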
